A study of Mus musculus with 22 samples.

Results

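Nr1d1 and Nr1d2 encode the nuclear receptors Rev-erb alpha and Rev-erb beta, and their messenger RNA was followed through the day in kidneys of wild-type and Clock-deficient mice. They are 2 of the 13967 genes that were measured by a probe set naming 1 gene and lay above a filter on dim signals. Each has 1 such probe set (10390691 for Nr1d1 and 10417734 for Nr1d2), and both passed the filter, at the 67.6 and 75.2 percentile of the genes tested by mean signal. The rule names the genes and uses no measured value, although earlier results of these data were known when it was written.

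Rev-erb proteins are repressors of the circadian clock. Clock pairs with Arntl (Bmal1) to switch on genes with E-box elements, and these include both Rev-erb genes and the Per and Cry genes. The Rev-erb proteins then bind response elements that they share with the activating ROR receptors, recruit the corepressor NCoR with the deacetylase Hdac3, and shut off Arntl and other genes, which closes a second loop beside that of Per and Cry. Haem is their ligand. In the kidney, as in the liver, the Rev-erb genes are among the genes with the strongest daily rhythm.

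The study measured 22 samples on Affymetrix whole-transcript arrays, 11 from wild-type mice (WT) and 11 from clock(-/-) mice, which lack functional Clock throughout the body and are called KO here. The colony was founded from clock(+/-) breeding pairs. All mice, of both genotypes, spent 2 weeks in 12 h of light and 12 h of dark and then 30 h in constant darkness, so zeitgeber time (ZT) counts hours from the former lights-on. Kidneys were taken every 4 h from ZT0 to ZT20; the sample labels name the left kidney as tissue and also whole kidney as source. Each array carries RNA combined from 2 or 3 mice, and each of the 12 groups has 2 such pools except WT ZT8 and KO ZT16, which have 1. Ages and sexes were not used here.

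Over all 35556 probe sets, array medians were 5.88 to 6.01 on the log2 scale, and any pair of arrays correlated at 0.980 to 0.994. Of 10 kidney marker genes, 9 were measured and all 9 lay above the filter, with a median percentile of 99.6 among all genes; of 7 adrenal markers, 1 did. Averaged over its measured members, the adrenal list lay between 4.55 and 4.81 on the WT arrays and between 4.48 and 4.68 on the KO arrays. The adipose list spanned 5.25 to 5.86 in WT and 5.13 to 6.68 in KO, with KO ZT8 pool 1 highest, and the proliferation list 5.70 to 6.78 and 5.61 to 7.55, with KO ZT20 pool 2 highest; without either array, the level difference and the rhythm within each genotype of both receptors, given below, were still called, while the Nr1d1 wave difference and the interval of the Nr1d2 amplitude difference missed without KO ZT8 pool 1. Immune markers spanned 5.95 to 6.38 in WT and 5.96 to 6.22 in KO, and muscle markers 5.44 to 5.75 and 5.41 to 5.70. Of the kidney markers, Atp6v1b1 was higher in KO by 0.14 and Umod lower, at -0.09 (limma, adjusted p = 0.00975 and 0.0396). Only markers above the filter were tested for level, which left 1 adrenal gene, Th. None of the tested markers of adrenal, adipose, skeletal muscle, immune and red blood cells or of proliferation was called for a level difference. Alas2, the only red blood cell marker measured, spanned 6.32 to 7.46 in WT and 5.82 to 7.54 in KO. It was called rhythmic in KO (limma, adjusted p = 0.00938), and its part in the results below was not tested. Clock itself ranged from 8.47 to 9.16 (median 8.91) on WT arrays and from 8.73 to 9.11 (median 8.97) on KO arrays, so its probe set does not separate the genotypes; the sources used here do not say whether it covers the deleted part of the gene, and it is no check of the labels. Genome-wide, 3 arrays lay between the genotypes, on a scale where 0 is the WT level and 1 the KO level that the other arrays give for that time, over genes that differ in level: WT ZT4 pool 2 at 0.73, KO ZT12 pool 2 at 0.53 and KO ZT0 pool 2 at 0.46. The other WT arrays lay from -0.36 to 0.27 and the other KO arrays from 0.80 to 1.28. In whole-organ RNA, fewer cells of a type and less RNA per cell cannot be told apart.

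The promoter sequences are shown because Clock and the ROR and Rev-erb receptors are known to act on these 2 genes through short DNA elements. Each run holds the 250 bases before the RefSeq start of the gene, on the minus strand of build GRCm38.p6, at chr11:98775378-98775627 for Nr1d1 and chr14:18239107-18239356 for Nr1d2. Capitals mark an E-prime box, CACGTT read on the opposite strand, in Nr1d1, and AGGTCA, the core of a ROR response element, in Nr1d2.
Nr1d1: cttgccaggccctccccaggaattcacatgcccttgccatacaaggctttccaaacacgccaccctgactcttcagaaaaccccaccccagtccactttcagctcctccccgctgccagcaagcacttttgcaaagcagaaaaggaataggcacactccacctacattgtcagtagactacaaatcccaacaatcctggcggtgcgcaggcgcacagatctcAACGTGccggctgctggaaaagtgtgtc
Nr1d2: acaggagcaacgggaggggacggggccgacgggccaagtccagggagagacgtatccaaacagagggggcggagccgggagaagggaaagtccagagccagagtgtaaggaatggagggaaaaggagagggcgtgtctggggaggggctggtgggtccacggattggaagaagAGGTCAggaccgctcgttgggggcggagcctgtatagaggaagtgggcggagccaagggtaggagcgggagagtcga

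Both strands were searched for the motifs named here. The E-prime box of Nr1d1 lies 28 bases before the start, and the same letters occur in 3.85% of the 32851 RefSeq windows of this length. Nr1d1 also holds 1 match to CANNTG, the loose form of the E-box, which is in 66.2% of windows. The AGGTCA of Nr1d2 lies 77 bases before the start, and these letters are in 14.0% of windows; Nr1d2 also holds 3 copies of the GC box GGGCGG, which is in 32.7% of windows. Neither window holds the canonical E-box CACGTG, which is one of the forms of CANNTG (6.02% of windows), the D-box TTATGTAA (0.819%) or the cAMP response element TGACGTCA (1.55%). G and C make up 54.8% of the Nr1d1 window and 63.6% of the Nr1d2 window. Elements farther from these starts were not searched.

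In WT kidney, Nr1d1 swung from 10.19 on the single ZT8 array down to 7.19 and 7.21 in the ZT20 pools, on the deposited log2 scale. Pool 1 and pool 2 read 8.29 and 8.47 in the ZT0 group, 10.04 and 9.22 in that of ZT4, 9.04 and 9.15 in that of ZT12, and 7.25 and 7.55 in that of ZT16. Both ZT4 pools, the ZT8 array and both ZT12 pools were therefore above every array of the other 3 times. In KO kidney the range was narrower, with 8.71 and 8.49 (ZT0), 8.76 and 8.68 (ZT4), 8.08 and 8.94 (ZT8), 7.37 and 8.27 (ZT12), 7.58 and 7.40 (ZT20) in the pools, and 7.47 on the single ZT16 array. The highest KO array, ZT8 pool 2, was below every WT array of ZT4 to ZT12, while the lowest KO array, at ZT12, was above both WT pools of ZT20.

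In order of group means, Nr1d1 in WT ran ZT8, ZT4, ZT12, ZT0, ZT16, ZT20. Only the steps from ZT12 to ZT0 and from ZT0 to ZT16 exceeded their 95% intervals, at 0.71 (0.08 to 1.34) and 0.98 (0.35 to 1.61) on the log2 scale, in a limma fit of the 12 group means. In KO the order was ZT4, ZT0, ZT8, ZT12, ZT20, ZT16, and only the step from ZT8 to ZT12 did, at 0.69 (0.06 to 1.32).

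Nr1d2 in WT kidney rose and fell later. Starting from 8.27 and 8.12 in the ZT0 pools, it read 9.51 and 8.99 in those of ZT4, 9.87 on the ZT8 array, 9.92 and 9.97 in the ZT12 pools, 8.94 and 9.18 in those of ZT16, and 7.90 and 8.08 in those of ZT20. The ZT8 array and the ZT12 pools were the highest, and ZT16, where Nr1d1 was already near its lowest, was still above ZT0. In KO kidney the values were 8.34 and 8.37 (ZT0), 8.70 and 8.94 (ZT4), 8.71 and 9.41 (ZT8), 8.34 and 9.14 (ZT12), 7.64 (ZT16, 1 array), and 7.75 and 7.56 (ZT20). The highest KO arrays were both second pools, at ZT8 and ZT12, and the ZT16 array lay with ZT20 at the bottom.

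The order of Nr1d2 group means in WT was ZT12, ZT8, ZT4, ZT16, ZT0, ZT20, and only the step from ZT16 to ZT0 exceeded its interval, at 0.86 (0.35 to 1.38) on the log2 scale. In KO it was ZT8, ZT4, ZT12, ZT0, ZT20, ZT16, and only the step from ZT0 to ZT20 did, at 0.70 (0.19 to 1.22).

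**Figure D1:**
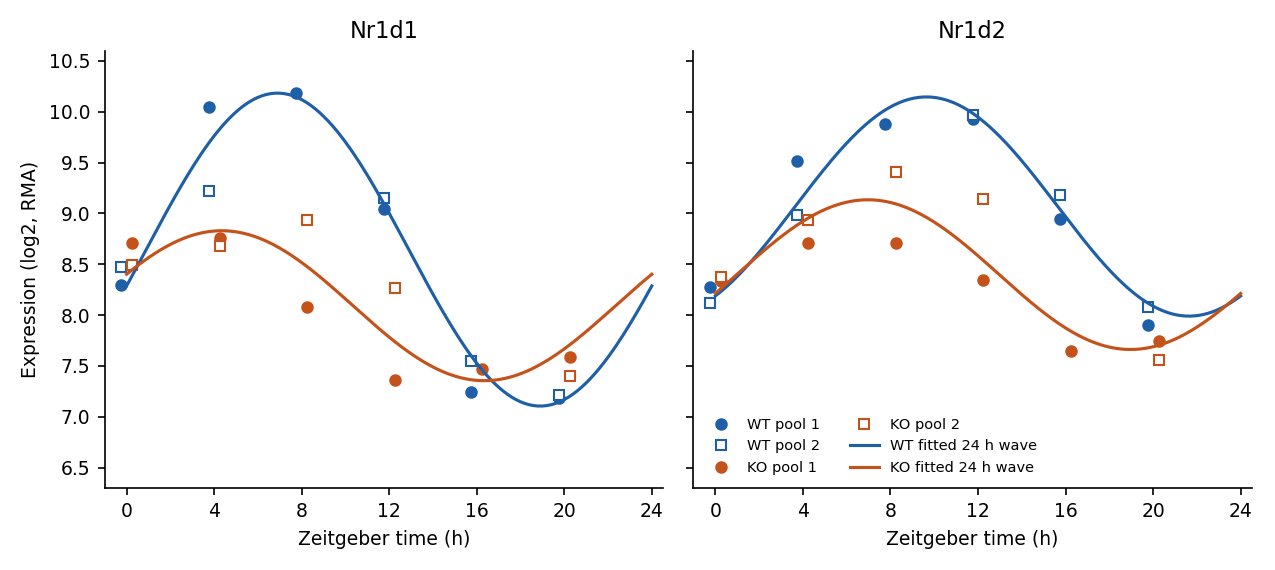
Expression (log2, RMA) of Nr1d1, left, and Nr1d2, right, against zeitgeber time; each point is 1 array (filled circles pool 1, open squares pool 2) and each curve the fitted 24 h wave of a genotype. The WT waves (blue) are taller than the KO waves (orange), which peak earlier: ZT6.90 against ZT4.35 for Nr1d1 and ZT9.64 against ZT6.97 for Nr1d2.

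A 24 h wave was fitted to each gene in each genotype, giving a mean over the day, an amplitude (mean to peak, log2) and a peak time. The first question was whether each receptor cycles in each genotype. Nr1d1 in WT had an amplitude of 1.54 ± 0.12 (SE, 11 arrays; 95% interval 1.28 to 1.80) and peaked at ZT6.90 ± 0.28 h, an 8.45-fold swing from trough to peak (limma, adjusted p = 7.68e-07). Nr1d2 in WT had an amplitude of 1.08 ± 0.10 (0.87 to 1.29) and peaked at ZT9.64 ± 0.34 h, a 4.46-fold swing (limma, adjusted p = 4.89e-06). By amplitude they ranked 4 and 6 of the 13967 genes. Both passed the test, against 6.48% of all genes tested.

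Both receptors still cycled in KO kidney. Nr1d1 had an amplitude of 0.74 ± 0.12 and peaked at ZT4.35 ± 0.58 h (limma, adjusted p = 0.00749), and Nr1d2 had an amplitude of 0.74 ± 0.10 and peaked at ZT6.97 ± 0.51 h (limma, adjusted p = 0.00149). Each made a 2.78-fold swing. Both passed the test, against 2.46% of all genes tested, and ranked 16 and 17 by amplitude. Neither passed without both ZT20 pools of KO, which gave 0.64 for Nr1d1 (limma, adjusted p = 0.128) and 0.71 for Nr1d2 (adjusted p = 0.111). With a 12 h harmonic added, the KO amplitude of Nr1d1 was 0.78 and missed the threshold (limma, adjusted p = 0.0607).

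The second question was whether the mean over the day differs. Nr1d1 averaged 8.64 in WT and 8.09 in KO, a difference of -0.55 ± 0.12 (SE; 95% interval -0.80 to -0.31), or 1.47-fold lower in KO (limma, adjusted p = 0.00470). Nr1d2 averaged 9.07 and 8.40, a difference of -0.67 ± 0.10 (-0.88 to -0.46), or 1.59-fold lower (limma, adjusted p = 0.000157). Both fell, against 3.90% of all genes called lower in KO. An exact permutation test exchanged genotypes within each time, so its null is no effect of genotype of any kind, on level or rhythm. This permutation test gave p = 0.0332 for Nr1d1 and p = 0.00154 for Nr1d2, or 0.0442 and 0.00456 after Benjamini-Hochberg adjustment over the 8 permutation tests made. The second pools taken alone gave differences of -0.35 and -0.45, which did not pass the test (limma, adjusted p = 0.512 and 0.211).

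The size of the difference was then taken at each time. For Nr1d1, KO minus WT was -0.91 at ZT4, -1.68 at ZT8 and -1.28 at ZT12 on the log2 scale, and 0.22, 0.08 and 0.29 at ZT0, ZT16 and ZT20. At ZT4, ZT8 and ZT12 every KO pool was below every WT pool and the 95% intervals excluded 0; at the other 3 times the intervals included 0. For Nr1d2 the difference was -0.82 at ZT8, -1.21 at ZT12 and -1.42 at ZT16, with intervals that excluded 0, and 0.16, -0.43 and -0.34 at ZT0, ZT4 and ZT20, with intervals that included it; its KO pools were below its WT pools at every time from ZT4 to ZT20. Single pools moved some of these values: without WT ZT4 pool 1 the ZT4 differences were -0.50 for Nr1d1 and -0.16 for Nr1d2, without KO ZT8 pool 1 the ZT8 difference of Nr1d2 was -0.47, and without KO ZT12 pool 1 the ZT12 difference of Nr1d1 was -0.83. After adjustment over all genes, no single time passed for either receptor: the lowest limma adjusted p was 0.112 for Nr1d1 and 0.0659 for Nr1d2, both at ZT12. The WT value at ZT8 and the KO value at ZT16 each rest on 1 array.

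**Figure D2:**
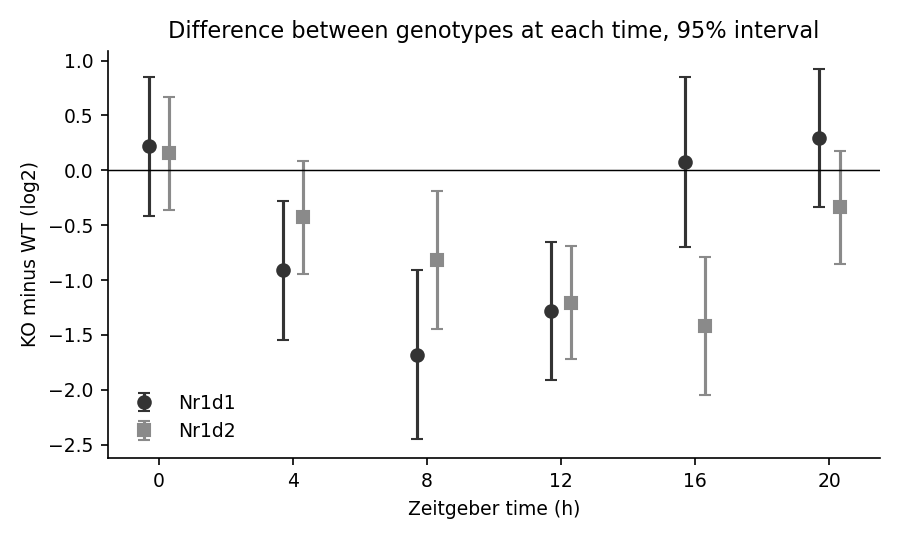
Difference KO minus WT (log2) at each zeitgeber time for Nr1d1 (circles) and Nr1d2 (squares), with 95% intervals from the fit of group means. Nr1d1 is lowest at ZT8 (-1.68) and back near 0 at ZT16, where Nr1d2 is lowest (-1.42).

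The third question was whether the rhythm itself differs between genotypes. The Nr1d1 amplitude in KO was 47.9% of that in WT, a difference of -0.80 ± 0.17 (SE; 95% interval -1.16 to -0.44), and the peak shifted by -2.55 ± 0.64 h (-3.89 to -1.21 h), which is earlier in KO. Amplitude and phase tested together gave a wave difference of 1.06 for Nr1d1 (limma, adjusted p = 0.0316), the 9th largest of 13967; 6 genes, or 0.043% of those tested, passed. The Nr1d1 call held in only 6 of 22 fits that left out 1 array each: those without WT ZT4 pool 1 or 2, WT ZT16 pool 1, KO ZT8 pool 2, KO ZT12 pool 2 or KO ZT20 pool 2. In the other 16 the wave difference was 0.97 to 1.09, and over all 22 the adjusted p was 0.00631 to 0.149. The exact permutation test gave p = 0.000257 for Nr1d1, or 0.00206 adjusted over the 8 tests. Because its null is no genotype effect of any kind, it does not test the wave apart from the level.

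For Nr1d2 the amplitude in KO was 68.3% of that in WT, a difference of -0.34 ± 0.14 (SE; 95% interval -0.64 to -0.05), and the peak shifted by -2.67 ± 0.62 h (-3.95 to -1.39 h). The interval of the amplitude difference included 0 without WT ZT20 pool 1 (-0.30), KO ZT4 pool 1 (-0.30) or KO ZT8 pool 1 (-0.26). Its wave difference of 0.70 did not pass after adjustment (limma, adjusted p = 0.133), though it did at an unadjusted p under 0.05, as did 7.78% of all genes. The exact permutation test gave p = 0.0795, or 0.0908 adjusted over the 8 tests. Without KO ZT12 pool 2, one of the arrays between the genotypes, the wave difference of Nr1d2 was 0.85. Without all 3 such arrays it was 0.80, and that of Nr1d1 was 1.19. These arrays were chosen after seeing the data, because they lay toward the other genotype. Leaving them out favours a larger difference between genotypes, so these values are no separate test of it.

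A test of genotype by time over the 12 group means, which assumes no wave shape, gave F = 7.05 for Nr1d1 and F = 5.20 for Nr1d2. Both passed at an unadjusted p under 0.05, as did 3.79% of all genes tested, and neither passed after adjustment (limma, adjusted p = 0.560 and 0.804), where 1 gene of 13967 did.

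An earlier peak in KO was common among rhythmic genes. Of 158 genes called rhythmic in both genotypes, 149 peaked earlier in KO, with a median shift of -2.17 h, beside -2.55 h and -2.67 h for the 2 receptors. The receptors' shifts depend on the wave shape: with the 12 h harmonic added, the Nr1d1 peaks were ZT7.6 in WT and ZT3.1 in KO, a shift of -4.5 h, and the Nr1d2 peaks ZT10.4 and ZT8.7, a shift of -1.7 h. The amplitude of each of those 158 genes in KO was divided by that in WT. The median of these ratios was 0.914, beside 0.479 for Nr1d1 and 0.683 for Nr1d2. Of all genes, 37 (0.265%) were lower in KO and rhythmic in both genotypes, the receptors among them.

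The spread between pools went the same way for the 2 receptors in most groups. In 7 of the 10 groups with 2 pools, both genes were higher in the same pool. In WT ZT0, KO ZT0 and KO ZT4 they were not. How often other pairs of genes did so was not counted. The widest gaps between pools, pool 2 minus pool 1, were -0.82 for Nr1d1 and -0.53 for Nr1d2 at WT ZT4, 0.86 and 0.69 at KO ZT8, and 0.90 and 0.80 at KO ZT12. In each of these 3 groups pool 2 was the one nearer to the other genotype. The median gap over groups was 0.18 and 0.17 in WT and 0.22 and 0.24 in KO.

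The 2 receptors were also set against each other on the same arrays, which removes what both share. In WT, Nr1d1 had the larger amplitude, by 0.46 ± 0.11 (SE; 95% interval 0.20 to 0.72), and its peak time minus that of Nr1d2 was -2.75 ± 0.30 h (-3.45 to -2.04 h). In KO the amplitudes differed by 0.001 ± 0.121 (-0.28 to 0.28), and the peak time of Nr1d1 minus that of Nr1d2 was -2.63 ± 0.63 h (-4.07 to -1.18 h). With the 12 h harmonic added, the peak time differences were -2.8 h in WT and -5.6 h in KO. The lead of Nr1d1 was thus present in both genotypes, while its larger amplitude was measured in WT.

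The log2 value of Nr1d1 minus that of Nr1d2, whose zero has no meaning because the probe sets differ, traced this through the day. In WT it averaged 0.18 at ZT0, 0.38 at ZT4 and -0.85 at ZT12, reached its lowest at ZT16, -1.66, and returned to -0.79 at ZT20; the ZT8 array gave 0.31. In KO it averaged 0.24 at ZT0, -0.10 at ZT4 and -0.55 at ZT8, was lowest at ZT12, -0.92, and stood at -0.16 at ZT20, with -0.17 on the ZT16 array. At ZT12 the genotypes lay close together, and at ZT16 they were farthest apart.

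Its 24 h wave had an amplitude of 1.02 in WT (permutation test over arrays, p = 0.00171, n = 11, adjusted 0.00456) and 0.50 in KO (permutation test, p = 0.00385, n = 11, adjusted 0.00616). The WT and KO waves of this quantity differed by 0.92 in height and phase together (exact permutation of genotypes within times, p = 0.00274, adjusted 0.00549). The daily mean of Nr1d1 minus Nr1d2 differed by 0.12 between genotypes (exact permutation, p = 0.533, adjusted 0.533).

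**Figure D3:**
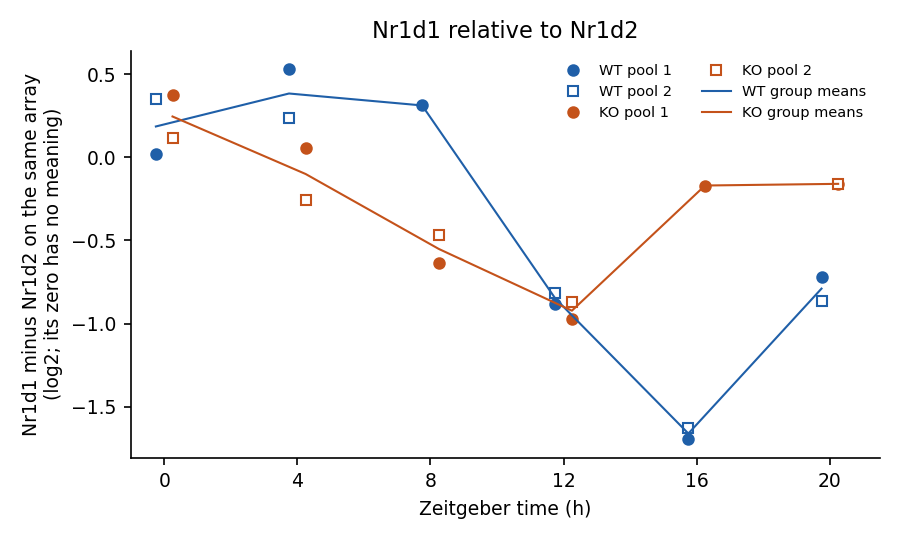
Log2 value of Nr1d1 minus that of Nr1d2 on the same array against zeitgeber time; points are arrays (filled circles pool 1, open squares pool 2) and lines join the group means. The WT line (blue) falls to -1.66 at ZT16, where the single KO array (orange) reads -0.17.

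The other genes of the loop were described from lists drawn from general knowledge of the pathway. Over all 13967 genes the median KO minus WT difference was 0.004, 731 were called higher and 545 lower (1111 and 343 when each array's median was subtracted first, which moves the median by 0.03 and leaves both receptors lower), and the median amplitude was 0.087 in WT and 0.068 in KO. Among the receptors' upstream activators, 3 of 4 listed genes were measured. Arntl, the partner of Clock and the best known target of Rev-erb repression, was higher in KO by 1.01 ± 0.10 (limma, adjusted p = 2.38e-06), and its amplitude was 1.55 in WT and 0.62 in KO. It peaked at ZT22.22 in WT and ZT18.97 in KO, on the opposite side of the day from Nr1d2. The Clock probe set, which may or may not cover the deleted part, read higher by 0.13 (limma, adjusted p = 0.0398), and Arntl2 was not called (-0.07).

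Of 8 E-box repressors, which like the Rev-erb genes are switched on by Clock and Arntl and whose products inhibit that pair, all 8 were called rhythmic in WT and 2 in KO, Per2 and Per3. Of all genes tested, 6.48% were called rhythmic in WT and 2.46% in KO. The median amplitude of the list was 0.74 in WT and 0.32 in KO. Ciart fell by 1.08 and Per3 fell by 0.52 on the log2 scale, whereas Cry1, a target of both the E-box and the Rev-erb loops, rose by 0.69 (limma, adjusted p = 0.00898, 0.000988 and 9.72e-06). The others were not called for level, where 9.14% of all genes tested were called in either direction.

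Of 4 factors acting on D-box elements, all 4 were rhythmic in WT and 2 in KO, Tef and Nfil3. The shares of all genes tested were 6.48% and 2.46%. Dbp and Tef, activators, fell by 0.86 and 0.41, and Nfil3, the repressor of the same sites and itself a reported Rev-erb target, rose by 0.55 (limma, adjusted p = 0.0158, 0.00149 and 0.000619). Hlf was not called for level (-0.14), where 9.14% of all genes tested were called in either direction.

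Of 13 genes reported elsewhere as repressed by Rev-erb proteins, 7 were measured above the filter. Of these, 5 rose in KO and none fell, where 731 of all 13967 genes were called higher and 545 lower. The median difference of the 7 was 0.18. Those that rose were Arntl, Cry1, Nfil3, Clock and G6pc. Clock is the gene disrupted in these mice, and without it 4 of 6 rose. G6pc is a gluconeogenic enzyme and rose by 0.18 (limma, adjusted p = 0.0248). Pck1, another enzyme of glucose production, differed by -0.06 and Ppargc1a, a coactivator, by 0.13, and neither was called. In WT, 6 of the 7 were rhythmic and in KO 2, Arntl and Nfil3, where 6.48% and 2.46% of all genes tested were. Arntl, Cry1, Nfil3 and Clock also belong to the lists above.

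Among the partners and competitors of the receptors, 1 gene was called, where 9.14% of all genes tested were called for level. Rora, the only ROR receptor of 3 above the filter, fell by 0.18 (limma, adjusted p = 0.0269) and was not called rhythmic in either genotype. None of the 4 measured corepressor genes of 6 listed (Hdac3, Tbl1x, Tbl1xr1 and Gps2) was called in level or rhythm by limma, with a median difference of 0.03. None of 7 kinases and ubiquitin ligases reported to act on Rev-erb proteins was called by limma either, with a median of -0.02. No gene of these 2 lists differed in level at an unadjusted p under 0.05.

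For haem, the ligand, 7 of 8 synthesis genes were measured. Alas1, the rate-limiting enzyme, fell by 0.28 and Cpox, a later one, fell by 0.25 (limma, adjusted p = 0.00256 and 0.0272). Alas1 was rhythmic in WT (amplitude 0.46, peak ZT13.93) and in KO (0.38, ZT12.76), as was Fech, which inserts the iron, at 0.18 and 0.17. Of 4 breakdown genes, Hmox1, the inducible haem oxygenase, fell by 0.32 (limma, adjusted p = 0.0147), and none was rhythmic. The other genes of both haem lists were not called for level. The shares of all genes tested were 9.14% for level, 6.48% for WT rhythm and 2.46% for KO rhythm.

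Among 47 other nuclear receptors, 33 were measured. Of these, 2 rose, 1 fell, 5 were rhythmic in WT and 2 in KO. Of all genes tested, 9.14% were called for level, 6.48% for WT rhythm and 2.46% for KO rhythm. The level calls among the receptors are near that share. The 33 receptors had a median difference of -0.02 and a median WT amplitude of 0.079, beside 1.54 and 1.08 for Nr1d1 and Nr1d2. The other receptors that rose were Thra, the thyroid hormone receptor alpha, and Nr1i2, the xenobiotic receptor PXR, by 0.22 (limma, adjusted p = 0.00807). Ppard, a fatty acid receptor, had the largest WT amplitude of them, 0.66, with a peak at ZT22.74, and cycled in KO at 0.53 with a peak at ZT19.26.

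Among the listed genes, 10 were rhythmic in both genotypes, the 2 receptors included, and all 10 had earlier peaks and smaller amplitudes in KO. Of all 13967 genes tested, 158 were rhythmic in both, 149 of those peaked earlier in KO, and their median amplitude ratio was 0.914. The shift among the listed genes ran from -0.29 h for Fech to -3.47 h for Ppard. For Fech the 2 waves were nearly alike, with amplitudes of 0.18 and 0.17 (wave difference, limma adjusted p = 0.989). Arntl had the smallest KO amplitude relative to WT, 0.397, followed by Nr1d1 at 0.479.

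**Figure D4:**
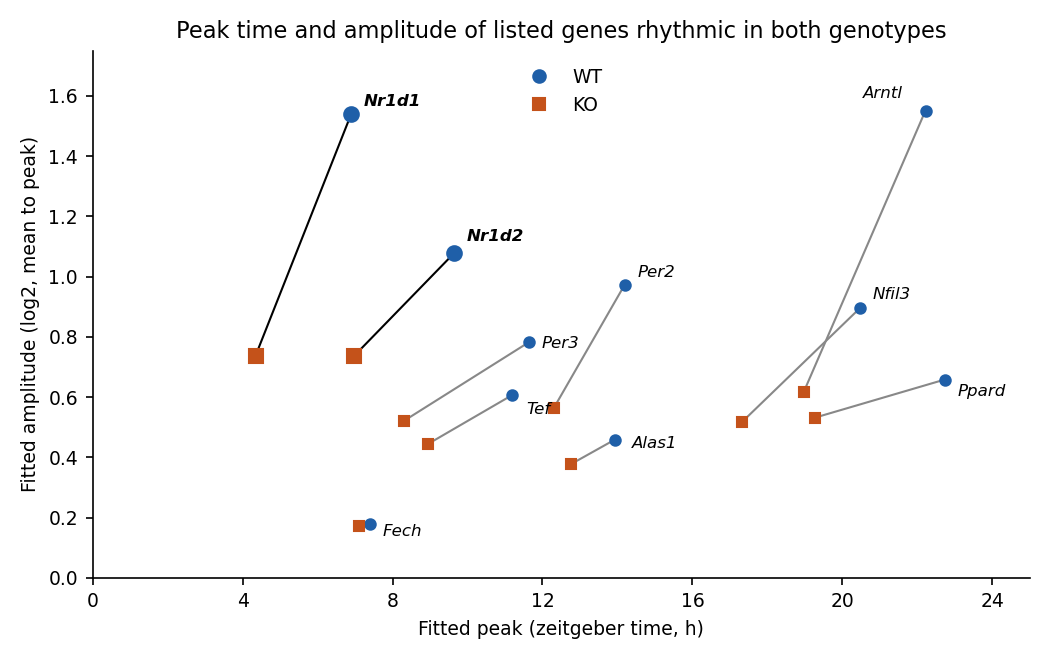
Fitted amplitude (log2, mean to peak) against fitted peak (zeitgeber time) for the listed genes rhythmic in both genotypes; a line joins each gene's WT value (blue circle) to its KO value (orange square). Every line runs left and down, from 1.54 to 0.74 for Nr1d1 and from 1.08 to 0.74 for Nr1d2.

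Thra overlaps the end of Nr1d1 in the RefSeq annotation, and the pair is known to be transcribed from opposite strands. In WT, Thra read 8.54 and 8.62 (ZT0), 8.79 and 8.70 (ZT4), 8.45 (ZT8, 1 array), 8.17 and 7.93 (ZT12), 8.12 and 7.86 (ZT16), and 8.38 and 8.13 (ZT20). In KO it read 8.79 and 8.76 (ZT0), 8.67 and 8.71 (ZT4), 8.78 and 8.56 (ZT8), 8.49 and 8.56 (ZT12), 8.60 (ZT16, 1 array), and 8.89 and 8.98 (ZT20). At every time but ZT4, every KO pool was above every WT pool.

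Thra rose in KO by 0.36 ± 0.05 (limma, adjusted p = 3.83e-05), opposite in sign to Nr1d1. It was rhythmic in WT, with an amplitude of 0.38 ± 0.05 and a peak at ZT3.03 (limma, adjusted p = 8.34e-05), and its KO amplitude of 0.15 was not called (adjusted p = 0.179). The labelling protocol is named for sense targets, and whether either probe set reads RNA of the other gene was not tested.

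**Figure D5:**
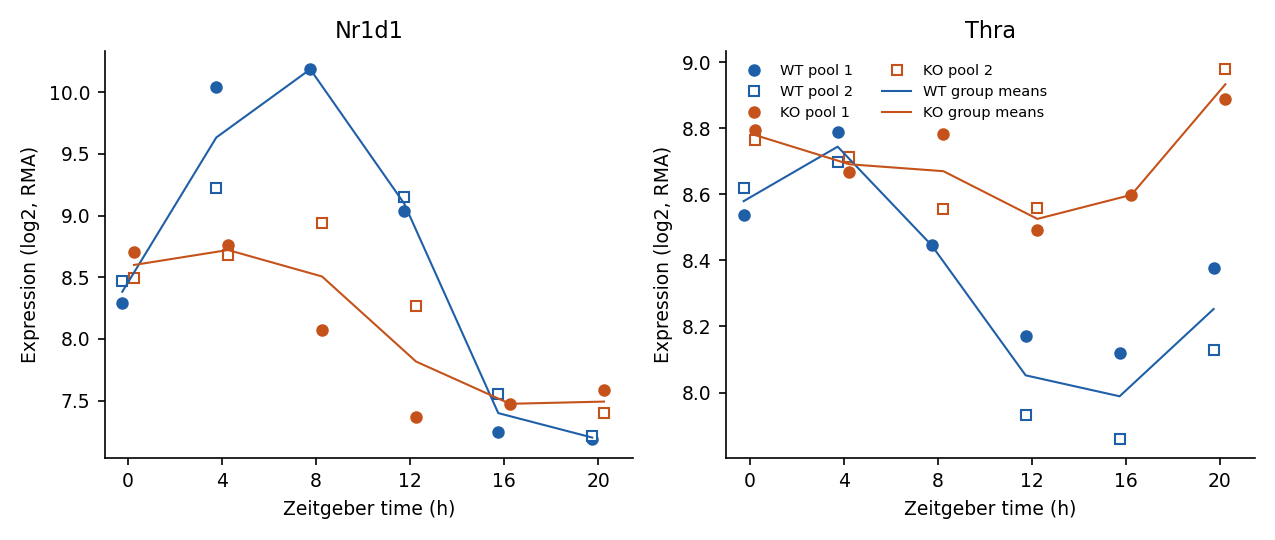
Expression (log2, RMA) of Nr1d1, left, and its overlapping neighbour Thra, right, against zeitgeber time; points are arrays (filled circles pool 1, open squares pool 2) and lines join group means, and the vertical scales differ. Nr1d1 is lower in KO (orange) at ZT4 to ZT12, and every KO array of Thra lies above the WT arrays of its time except at ZT4.

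Of the 4 nearest measured genes on each side, 1 of 8 around Nr1d1 (Thra) and 2 of 8 around Nr1d2 (Top2b and Nid2) were called for level, where 9.14% of all genes tested were called in either direction. For WT rhythm 1 of each 8 was called (Thra and Ube2e2), where 6.48% of all genes were, and none was rhythmic in KO by limma. These counts are of so few genes that they cannot be weighed against the shares, and no test was made. Top2b and Nid2 lie 1773269 and 1512151 bases from Nr1d2, whereas the farthest of the 8 around Nr1d1 lies 71954 bases away. The nearest gene on the other side of Nr1d1 was Msl1, and those of Nr1d2 were Thrb and Nkiras1, and none of these 3 was called in any comparison.

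Over the 12 group means, the genes most like Nr1d1 were Sgtb (r = 0.941), Pdk2 (0.940), Neu1 (0.939), Tk2 (0.934) and Atp7b (0.933), all with WT peaks between ZT6.09 and ZT8.02. Most opposite were Tardbp (-0.936), Pdia5 (-0.928) and Iars (-0.914). For Nr1d2 they were Trak2 (0.963), Nadsyn1 (0.952), Pitpnc1 (0.948), Cdk5 (0.944) and Mapk12 (0.941), and most opposite were Tgfb3 (-0.965), Stx18 (-0.954) and Wars (-0.953). All 10 similar genes had WT amplitudes of at most 0.46, Sgtb's being the largest. Nr1d1 and Nr1d2 correlated with each other at r = 0.754, and Nr1d2 ranked 461 in likeness to Nr1d1. These values describe 12 means that share their arrays and carry no test.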

How the data were processed

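Values are the deposited log2 intensities, which the authors made with RMA per the submitters' processing notes (version and genome build not given in the sources used here). They keep no absolute level, and the number of arrays limits the precision. Of 35556 probe sets, 21789 name 1 gene in the platform annotation, 1621 several and 12146 are not listed; 21698 matched RefSeq by gene number. The brightest probe set was kept per gene and those under the 30th percentile of mean signal were left out.

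With limma 3.58.1 (R 4.3.3), a mean and a 24 h wave per genotype were fitted to all 22 arrays (16 residual degrees of freedom), and 12 group means in a second fit (10), with Benjamini-Hochberg adjustment over 13967 genes at 0.05. Intervals are 95%, by the delta method for amplitude and peak. The wave of Nr1d1 minus Nr1d2 used 100000 rearrangements (Python 3.11.15, numpy 2.4.6), and exact permutations within times used 11664. Limma p-values set each estimate against the residual spread of its gene, drawn toward that of the other genes. In the fit of group means this is the spread between pools, to which the 2 groups of 1 pool add nothing. In the wave fit the residual spread also holds departures from the wave shape. Permutation p-values come from rearranged labels. Where genotypes were exchanged within times, the null is no effect of genotype on level or rhythm, so level and wave are not tested apart. Whether pool numbers pair the samples was left undecided. Of 45 pairs of groups, 25 had deviations correlated over 0.1 (median r = 0.12), with no null to compare them with.

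The members and gene lists were chosen with earlier results of these data known. Named genes are the members; called list genes, at most 4 per list and comparison; Arntl, Nfil3, Cry1 and Thra; the 5 most alike and 3 most opposite genes; and the nearest neighbours, with called neighbours named beside their counts. Alternatives covered the filter, probe choice, scaling, wave shape, spread model, array weights, pools, genotypes fitted apart and left-out arrays. Promoters come from RefSeq.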

Additional observations from a re-analysis of the deposited data

Results flagged for a closer look

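The effect of genotype on the Nr1d1 rhythm differed from 0 by a test of the difference itself: the WT and KO waves, of amplitude 1.54 and 0.74, were 1.06 apart in amplitude and phase together (limma, adjusted p = 0.0316). In the exact permutation of genotypes within times, whose null is no effect of genotype on level or rhythm, p was 0.000257. The limma call held in 6 of the 22 fits that left out 1 array.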

How the results depend on the processing

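The limits are few arrays: each group holds 1 or 2 pools, and 2 groups hold 1. Without both ZT20 pools of KO, neither receptor was called rhythmic in KO, though their amplitudes changed little. Directions of the members' level, amplitude, peak time and single-time differences held under all settings run for them. The exception was the Nr1d1 difference at ZT16, which reversed to -0.08 without WT ZT16 pool 1. Amplitudes, wave differences and F values are never negative, so they have no direction to hold. Causes of the changes below were not tested beyond the smaller number of samples or the larger number of features in some settings; limma adjusted p-values stand in brackets, and counts are of genes called.

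Pool 1 alone gave KO amplitudes of 0.774 for Nr1d1 (0.0948) and 0.584 for Nr1d2 (0.140), a KO wave of Nr1d1 minus Nr1d2 of 0.570 (exact permutation p = 0.0833), and 565 genes for level, 95 for WT rhythm, 0 for KO rhythm and 3 for rhythm difference. Pool 2 alone gave for Nr1d1 a WT amplitude of 1.30 (0.0808), a KO amplitude of 0.771 (0.360), a level difference of -0.355 (0.512), a wave difference of 0.614 (0.874) and a peak shift of -1.18 h whose interval included 0. For Nr1d2 it gave a KO amplitude of 0.875 (0.0887), a level difference of -0.451 (0.211) and an amplitude difference of -0.199, with waves of Nr1d1 minus Nr1d2 of 0.950 in WT and 0.439 in KO (exact permutation p = 0.283 and 0.200). Its counts were 1, 14, 0 and 0.

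The 12 group means gave Nr1d1 a KO amplitude of 0.623 (0.180) and a wave difference of 0.986 (0.560), with counts of 823, 140, 59 and 1. The added 12 h harmonic gave 0.777 (0.0607) and 1.07 (0.261), with 311, 118 and 1 for WT rhythm, KO rhythm and rhythm difference. The Nr1d1 wave difference stayed 1.06 with every probe set tested (0.0927) and with a trended, robust spread (0.0762). Without both KO ZT20 pools the KO amplitudes were 0.638 (0.128) and 0.705 (0.111), the Nr1d1 wave difference 1.21 (0.112), and the counts 639 for level, 12 for KO rhythm and 3 for rhythm difference.

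Counts for KO rhythm were 228 without a filter, 222 with every probe set, 697 with array weights and 195 with KO arrays fitted alone; that for WT rhythm was 363 with WT arrays alone. A filter at the 50th percentile gave 10 genes for rhythm difference, and array weights gave 11, with 2351 for level. Without the 3 arrays between the genotypes, chosen after seeing the data, the Nr1d2 wave difference was 0.801 (0.0437) and 1998 genes differed in level. Without WT ZT4, KO ZT8 and KO ZT12 pool 2, a set taken from an earlier analysis of these data, it was 0.898 (0.000324), with counts of 595, 58 and 20 for the 3 rhythm tests.

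With 1 array left out, ranges were 0.966 to 1.16 for the Nr1d1 wave difference, 0.636 to 0.846 for that of Nr1d2, -0.405 to -0.256 for the Nr1d2 amplitude difference, -1.32 to -0.502 for Nr1d1 and -0.692 to -0.164 for Nr1d2 at ZT4, -1.16 to -0.470 for Nr1d2 at ZT8, -1.73 to -0.828 for Nr1d1 at ZT12, -0.076 to 0.227 for Nr1d1 at ZT16, and -1.60 to -0.807 for Nr1d2 at ZT12. Counts ran from 602 to 954 for WT rhythm, 77 to 477 for KO rhythm and 1 to 11 for rhythm difference. With the pool number as a replicate block, no member call changed (Nr1d1 wave difference 1.08, limma adjusted p = 0.0408). Counts were then 1405 for level, 1206 for WT rhythm, 416 for KO rhythm and 7 for rhythm difference. The check of pool numbers does not decide whether such a block is right.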
